A study of Mus musculus with 90 samples.

Results

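The genes described here are 8 genes that mark fat cells (adipocytes), followed through 90 subcutaneous melanoma allografts of mice: Adipoq, Retn, Lep, Cidec, Lipe, Plin1, Fabp4 and Pparg. They were taken by name, with earlier results of these data known. Each was read from 1 probe set, the one naming that gene alone with the highest mean over all arrays. A probe set of this kind was found for 7 of the 8 genes, among 18194 genes in all. Plin1, which encodes the main coat protein of the fat cell's lipid droplet, had none and was not analysed here.

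White fat cells store energy as triglyceride in a single large lipid droplet and release fatty acids from it by lipolysis. They also secrete hormones, the adipokines, which report the state of the fat stores to other organs. Fat lies beneath the skin, so a subcutaneous tumour grows next to it, and in the female mouse the mammary ducts run through the same pad. The program is switched on by the nuclear receptor PPAR gamma together with factors of the C/EBP family.

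All tumours carried the genotype label Hgftg;Cdk4R24C/R24C, an Hgf transgene with an altered Cdk4, and came from strain B6.cBrd. Ages and the site within a tumour from which RNA was taken are not given in the sources used here. The treated mice received anti-mouse PD-L1 mIgG1 D265A, an antibody that blocks a ligand restraining T cells. Their tumours were labelled by outcome as stabilization (3 tumours of study 3), relapse (3 in study 3 and 3 in study 2), responder (10 and 17), growth delay (2 tumours of study 2) and non-responder (9 and 14). Responders had shrunk, stabilization tumours were responders that held their volume, and relapse tumours had shrunk below measurable size and grown back. Growth delay tumours appeared only after treatment, and non-responders kept growing. Control mice received mouse IgG1 D265A (IgG, 8 in study 3 and 14 in study 2) or PBS (4 and 3). Each antibody was labelled as given at 10 mg/kg and PBS at 10 ml/kg, and the text of the series names a higher antibody dose as well. No 2 tumours share an animal number. In both studies the numbers of treated, IgG and PBS animals run in separate blocks, far apart in study 3 and next to each other in study 2, so treatment and cohort cannot be told apart between them.

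Values are on a log2 scale, on which a step of 1 is 2-fold, and ran between 2.19 and 14.84 over all probe sets. Melanocyte transcripts, which mark the tumour cells, had a list mean under 9 in 6 of the 90 tumours. These were study 3 responder replicates 3 and 4, study 3 stabilization replicates 1 and 2, study 2 responder replicate 5 and study 2 non-responder replicate 14. The mean of 9 measured B cell genes was above 9 in study 3 responder replicate 3 (9.82) and study 2 non-responder replicate 14 (9.45). One array of study 3 PBS tumours, replicate 2, had a 3 prime minus 5 prime difference of 5.20 in its RNA control probe sets. In whole tumour RNA, fewer cells of a type and less RNA per cell cannot be told apart. Several comparisons of the members below are also given without such tumours. No values without them are given for the other fat gene lists, the correlations with cell type lists or the ranking of genes close to the members.

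The upstream sequences of the 3 adipokine genes and of Cidec are shown because factors of the fat program are known to act on such stretches. They hold the 250 bases before the transcription start in RefSeq's GRCm38.p6 annotation. Capitals mark matches, on either strand, to 4 letter patterns. The first is TTGCNNAA, the core that C/EBP factors recognise, and another is the short box named for its letters, CCAAT. The remaining patterns are a half-site of nuclear receptors, written AGGTCA, and a core promoter element near many starts, written TATAAA and called the TATA box. The windows are chr16:23146286-23146535 on the plus strand for Adipoq, chr8:3655520-3655769 on the plus strand for Retn and chr6:29059971-29060220 on the plus strand for Lep. For Cidec they are chr6:113435761-113436010 and chr6:113434765-113435014 on the minus strand, the upstream and the downstream of 2 annotated starts.
Adipoq: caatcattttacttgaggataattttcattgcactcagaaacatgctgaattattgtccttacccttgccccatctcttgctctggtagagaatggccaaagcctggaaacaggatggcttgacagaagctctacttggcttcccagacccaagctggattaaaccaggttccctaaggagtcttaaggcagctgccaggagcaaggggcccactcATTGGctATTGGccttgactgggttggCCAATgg
Retn: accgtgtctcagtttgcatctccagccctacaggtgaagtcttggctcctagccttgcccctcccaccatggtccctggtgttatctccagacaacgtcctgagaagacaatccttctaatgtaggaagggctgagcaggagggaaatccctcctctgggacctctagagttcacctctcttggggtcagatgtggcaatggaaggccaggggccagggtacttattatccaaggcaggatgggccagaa
Lep: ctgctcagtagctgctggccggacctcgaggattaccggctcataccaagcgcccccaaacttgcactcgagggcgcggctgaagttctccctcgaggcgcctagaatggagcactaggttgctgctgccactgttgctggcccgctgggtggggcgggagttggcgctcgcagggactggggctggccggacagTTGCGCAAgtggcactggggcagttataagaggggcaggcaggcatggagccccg
Cidec, upstream start: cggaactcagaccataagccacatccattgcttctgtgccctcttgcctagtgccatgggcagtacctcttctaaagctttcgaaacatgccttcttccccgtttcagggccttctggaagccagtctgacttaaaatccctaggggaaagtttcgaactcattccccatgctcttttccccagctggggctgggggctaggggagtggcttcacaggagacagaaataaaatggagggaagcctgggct
Cidec, downstream start: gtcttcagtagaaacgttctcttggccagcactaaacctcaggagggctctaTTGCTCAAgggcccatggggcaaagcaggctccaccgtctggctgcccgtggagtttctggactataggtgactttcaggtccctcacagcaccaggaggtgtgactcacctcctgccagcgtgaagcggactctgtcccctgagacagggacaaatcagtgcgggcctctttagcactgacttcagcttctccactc

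In the Adipoq window 3 CCAAT boxes were found, with 2 of them on the opposite strand. Lep and the downstream start of Cidec each had 1 C/EBP core, and none of the 4 patterns was found in the Retn window or at the upstream start of Cidec. Over the 11 windows of the 7 members in the annotation table, Plin1 included, the C/EBP core was present in 4. The CCAAT box was present in 3, the half-site in 2 and the TATA box in 1. Among all 32851 windows of that length the shares were 9.56%, 33.8%, 14% and 12.4%, in the same order. No matched patterns overlapped in the windows shown. Fabp4 had no entry in that table. A match describes letters only, and no binding was measured.

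Adipoq encodes adiponectin, an adipokine made almost only by fat cells. It varied more between tumours of 1 group than nearly any other gene, with a within-group SD of 2.04 that ranked 10 among 18194 genes. The median gene had a within-group SD of 0.235. In study 3, Adipoq had values of 11.62, 8.55 and 12.70 in relapse tumours, and 7.49, 9.38 and 5.8 in stabilization tumours. The study 3 responders spread from 5.43 to 13.32 with a median of 10.92, against 4.57 to 9.94 with a median of 6.48 in non-responders. IgG tumours lay between 6.39 and 11.46 (median 9.13), and the PBS tumours had 5.04, 8.0, 5.00 and 9.05. The order of medians in study 3 was thus relapse, responder, IgG, stabilization, PBS and non-responder, and the ranges of every pair of neighbours in it overlapped.

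In study 2 the Adipoq medians were closer together. Relapse tumours had 4.55, 6.51 and 8.83, and growth delay tumours had 4.47 and 5.57. Responders ran from 4.09 to 11.16 (median 5.86), non-responders from 4.33 to 11.67 (median 6.55) and IgG tumours from 4.02 to 8.40 (median 5.59). The PBS tumours had 8.42, 7.92 and 5.12. The order of medians, PBS, non-responder, relapse, responder, IgG and growth delay, differed from that of study 3, and neighbouring ranges overlapped here too. In study 2 responders and non-responders a few tumours stood far above the median of their group.

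**Figure D1:**
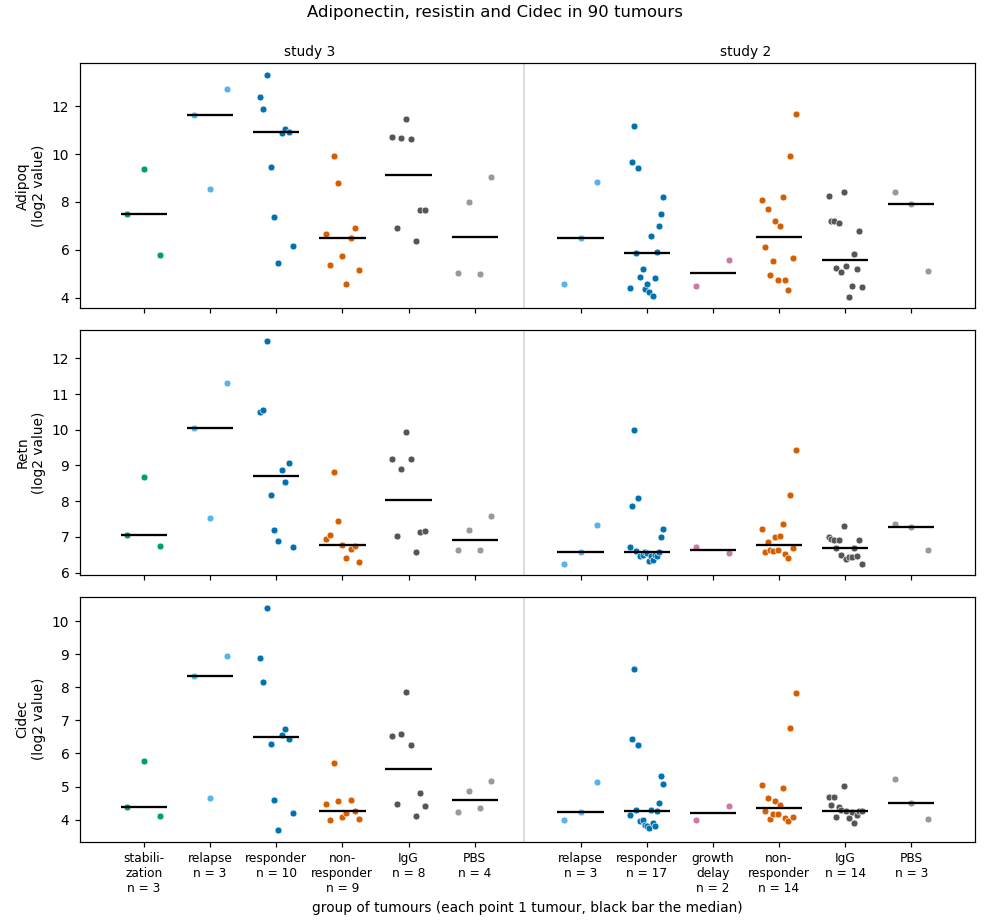
Log2 array values of Adipoq, Retn and Cidec (vertical axes) in each tumour of 12 groups, study 3 on the left and study 2 on the right, with black bars at the medians. The study 3 responders reach up to 13.32 for Adipoq, with a median of 10.92, while the study 2 responders have a median of 5.86 with a few high tumours.

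Every measured member had a higher mean in study 3 responders than in study 3 non-responders. All 7 passed the test (limma over all 18194 genes, Benjamini-Hochberg adjusted p under 0.05), and all 7 were higher, where 14.4% of all genes were called higher. The members were chosen with earlier results of these data known. Their values also rise and fall together (pairwise Spearman correlations of 0.58 to 0.96 over study 3), so these are not 7 separate results. The median difference was 1.30 over the members and -0.08 over all genes. Adipoq rose most, by 3.26 ± 0.92 (SE; 10 responders and 9 non-responders), a 9.61-fold difference of group means (adjusted p = 0.00662). Of the 10 responders 6 lay above the highest non-responder, and 2 lay below the non-responder median.

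Retn, which encodes the adipokine resistin, had values from 6.71 to 12.48 (median 8.71) in study 3 responders, against 6.30 to 8.82 (median 6.77) in non-responders. The ranges overlapped, with 5 of 10 responders above every non-responder. Retn rose by 1.88 ± 0.46 (adjusted p = 0.00268). Lep, which encodes leptin, the hormone that signals the size of the fat stores to the brain, lay near the low end of the array's scale in most tumours. Its values ran from 3.75 to 7.42 (median 4.62) in responders and from 3.78 to 4.78 (median 4.05) in non-responders, with 3 of 10 responders below the non-responder median. The rise of Lep was 0.77 ± 0.21 (adjusted p = 0.00588). That SE rests on 1 spread per gene shared by all 12 groups. The SD of Lep itself was 1.12 in responders and 0.29 in non-responders.

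Cidec, a lipid droplet protein that helps droplets fuse into the single large droplet of white fat, ran from 3.67 to 10.40 (median 6.50) in study 3 responders. In non-responders it ran from 3.98 to 5.70 (median 4.25), below 7 of the 10 responders. Cidec rose by 2.16 ± 0.55, 4.48-fold (adjusted p = 0.00327). Lipe, which encodes hormone-sensitive lipase, had values from 4.91 to 9.64 (median 6.49) in responders and from 4.91 to 6.13 (median 5.43) in non-responders. It rose by 1.30 ± 0.32 (adjusted p = 0.00297), with 7 of 10 responders above the highest non-responder. A second Lipe probe set, near the low end of the scale, had means of 4.07 in responders and 4.13 in non-responders. Its Pearson correlation with the first over all tumours was -0.40.

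Fabp4, the fatty acid carrier of the fat cell cytoplasm, which macrophages and capillary endothelium also make, ran from 9.71 to 13.60 (median 12.09) in study 3 responders. It ran from 9.72 to 11.59 (median 10.62) in non-responders. The rise of 1.17 ± 0.44 had an adjusted p of 0.0303. It no longer passed in 5 of 19 fits that each left out 1 tumour, namely responder replicate 1, 3 or 4 or non-responder replicate 6 or 8. Its 3 other probe sets differed by 1.48, 0.67 and 1.07. Pparg, the nuclear receptor that directs fat cell formation and is also found in macrophages, had values from 5.64 to 8.50 (median 6.93) in responders and from 5.28 to 6.04 (median 5.55) in non-responders. The overlap was least here, with 8 of 10 responders above every non-responder and 0 of 10 below the non-responder median. Pparg rose by 1.26 ± 0.29 (adjusted p = 0.00173).

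The size of these rises rested in part on single tumours. Each member's smallest difference among the 19 leave-out fits came without responder replicate 3, which had the highest value of all 90 tumours for each of the 7 genes. Lep moved most in proportion, to 0.49 without it. Without the tumours whose B cell list mean is above 9, a setting chosen after seeing the data, 6 of 7 members were called higher, against 11.4% of all genes, with Adipoq at 2.88 ± 0.90 (adjusted p = 0.0166). Without the tumours low in melanocyte transcripts 6 of 7 were called higher, against 6.4% of all genes, with Adipoq at 2.89 ± 0.92 (adjusted p = 0.0294). Fabp4 was the member lost in both cases. By an exact rank-sum test, which reads order and not size, 3 of 7 passed (Adipoq, Retn and Pparg), where 22.1% of all genes passed in either direction. Lep had an adjusted p of 0.192 by that test. With only the compared groups in the limma fit, 5 of 7 passed, where 17.3% of all genes passed in either direction.

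**Figure D2:**
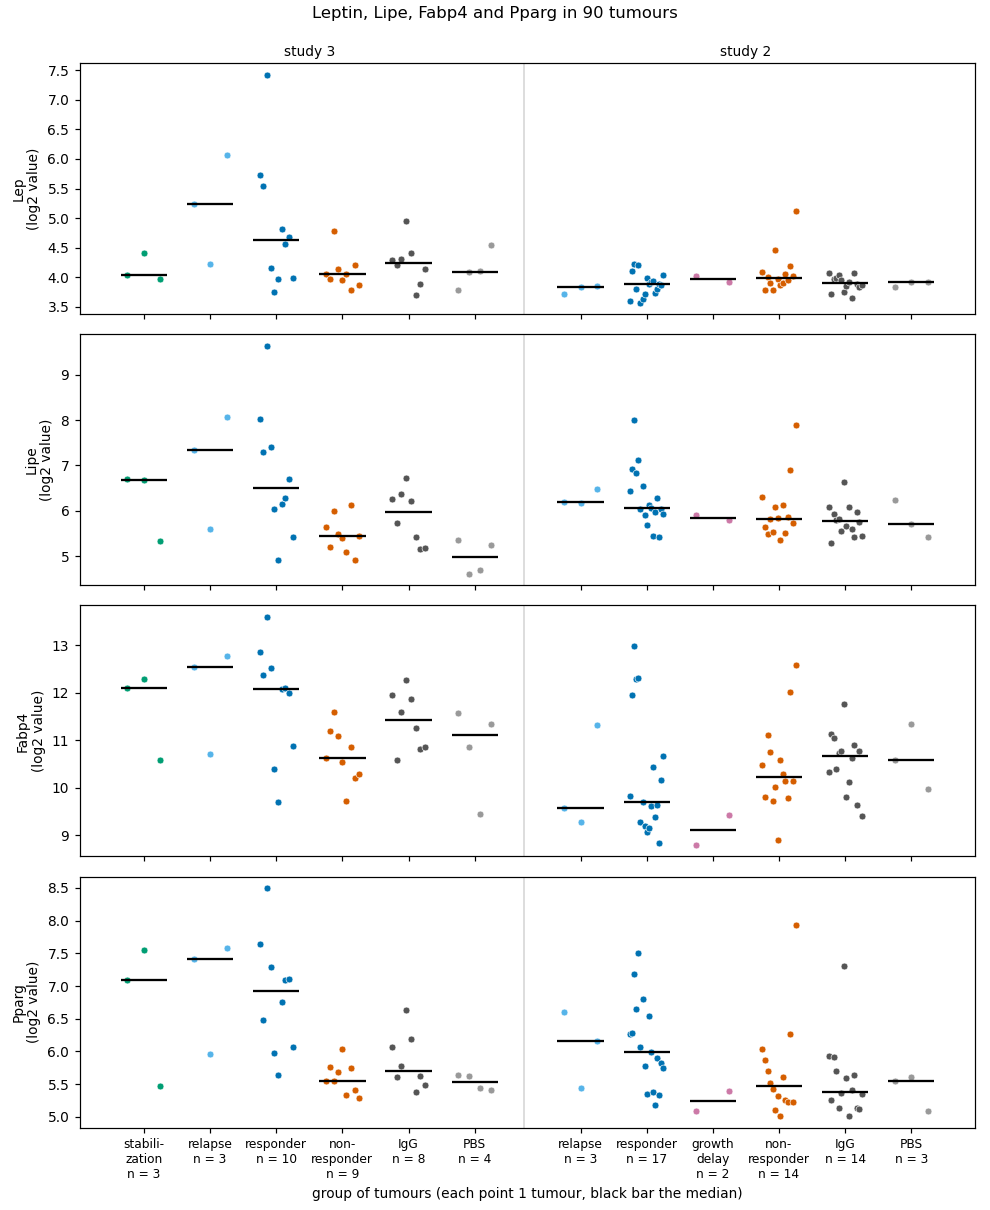
Log2 array values of Lep, Lipe, Fabp4 and Pparg (vertical axes) in each tumour of 12 groups, laid out by study and outcome with black bars at the medians. For Pparg, study 3 responders have a median of 6.93 and non-responders a median of 5.55, and Lep stays near 4 in most tumours outside the study 3 relapse and responder groups.

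Markers of other cells also differed between these groups of study 3. The mean of 10 macrophage genes ran from 9.59 to 11.83 (median 10.67) in study 3 responders and from 9.04 to 10.08 (median 9.49) in non-responders. The mean of 12 fibroblast genes ran from 8.69 to 11.61 (median 9.86) and from 7.57 to 9.15 (median 8.87) in these groups. For 10 genes of mammary and other simple epithelium the range was 5.06 to 8.09 (median 5.42) in responders and 5.17 to 5.42 (median 5.29) in non-responders. The mean of 8 T cell genes ran from 6.64 to 10.05 (median 7.70) and from 5.57 to 6.69 (median 6.26). The melanocyte list mean ran from 6.76 to 9.77 (median 9.41) in responders, against 9.51 to 9.85 (median 9.68) in non-responders. In study 2, where no member passed, responder and non-responder medians were 9.87 and 9.09 for macrophage and 8.46 and 7.83 for fibroblast genes. They were 6.87 and 6.07 for T cell, 5.09 and 5.19 for epithelium and 9.46 and 9.64 for melanocyte genes. An array gives no zero level for a marker, and the part of these cells in the members' differences was not tested.

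In study 2 no member passed between responders and non-responders. Of the 7 members 0 passed by limma, 0 had an unadjusted limma p under 0.05, and 0 passed the exact rank-sum test after adjustment. By the rank-sum test Pparg had an unadjusted p of 0.0261 (adjusted p = 0.120). Over all genes, limma called 2.63% and the rank-sum test 2.84% in either direction, and 26.6% had an unadjusted limma p under 0.05. Adipoq averaged 6.35 ± 2.17 in responders and 6.85 ± 2.14 in non-responders (SD, n = 17 and 14), a difference of -0.50 ± 0.72 (SE, adjusted p = 0.649). Cidec ran from 3.73 to 8.54 (median 4.26) in responders and from 3.96 to 7.81 (median 4.35) in non-responders, with a difference of -0.07 ± 0.43. Retn ran from 6.33 to 9.99 (median 6.58) and from 6.42 to 9.42 (median 6.77) in the same order, with a difference of -0.12 ± 0.36. These ranges overlapped almost fully.

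Fabp4 and Lep did not pass in study 2 either, with differences of -0.19 ± 0.34 and -0.20 ± 0.17. Lipe and Pparg leaned upward, without passing. Lipe ran from 5.42 to 8.0 (median 6.05) in responders and from 5.35 to 7.90 (median 5.82) in non-responders, a difference of 0.27 ± 0.26 (adjusted p = 0.472). Pparg ran from 5.19 to 7.50 (median 5.99) in responders and from 5.01 to 7.94 (median 5.47) in non-responders, a difference of 0.43 ± 0.23 (adjusted p = 0.210). The highest Pparg value of study 2 non-responders belonged to replicate 14, the tumour rich in B cell transcripts. Without the tumours of high B cell means Pparg passed in study 2, at 0.60 ± 0.20 (adjusted p = 0.0314), where 7.57% of all genes were called higher, while Adipoq stood at -0.13 ± 0.70. Without the tumours low in melanocyte transcripts Pparg passed as well, at 0.51 ± 0.19 (adjusted p = 0.0448), where 7.51% of all genes were called higher.

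When the responder minus non-responder differences of both studies were themselves compared, 0 of 7 members and 0% of all genes passed. The differences between the studies ran from 0.83 (Pparg) to 3.77 (Adipoq), with adjusted p between 0.287 and 0.347. At an unadjusted p under 0.05 all 7 members were higher in study 3, where 6.18% of all genes were. Without the tumours of high B cell means the values were 3.02 ± 1.14 for Adipoq and 0.48 ± 0.33 for Pparg. The response difference is not shown to differ between the studies for any member after adjustment. Averaged over both studies with equal weight, 5 of 7 members were higher in responders, where 18.9% of all genes were called higher. These were Adipoq (1.38 ± 0.59), Cidec (1.05 ± 0.35), Retn (0.88 ± 0.29), Lipe (0.79 ± 0.21) and Pparg (0.84 ± 0.18). The averages of Adipoq, Cidec and Retn join a rise in study 3 with a value below 0 in study 2. Without the tumours of high B cell means Adipoq stood at 1.38 ± 0.57 (adjusted p = 0.0373), and without those low in melanocyte transcripts at 1.28 ± 0.58 (adjusted p = 0.0626). The count of members called was 5 and 4 in these settings, where 52.5% and 44.6% of all genes were called in either direction. The call of Adipoq was lost in 23 of 50 fits that each left out 1 tumour, with adjusted p between 0.0162 and 0.0861. In study 3 these were responder replicates 1, 2, 3, 7, 8 and 9 and non-responder replicates 2, 5, 6, 7 and 9. In study 2 they were responder replicates 2, 3, 5, 16 and 17 and non-responder replicates 2, 4, 5, 7, 10, 11 and 13.

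**Figure D3:**
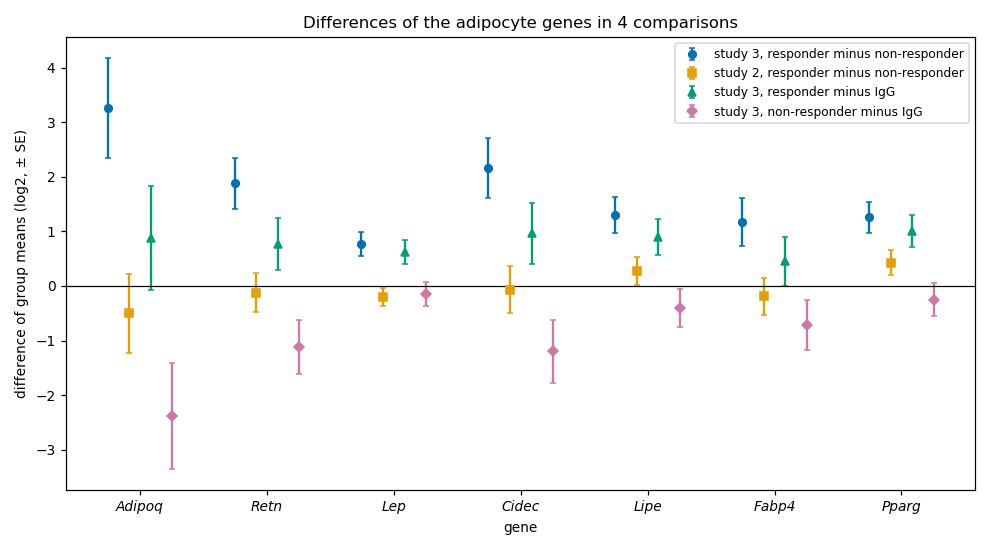
Differences of group means for the 7 measured members (horizontal axis) on the log2 scale, with standard errors, in 4 comparisons. The study 3 responders lie above non-responders for every member, from 0.77 for Lep to 3.26 for Adipoq, while the study 2 differences lie between -0.50 and 0.43.

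Set against IgG tumours, study 3 showed high Adipoq, Retn and Cidec values in part of the responders and in part of the controls. In IgG tumours Retn ran from 6.57 to 9.94 (median 8.04) and Cidec from 4.12 to 7.85 (median 5.53). Adipoq was 9.89 ± 2.70 in responders and 9.01 ± 2.04 in IgG tumours (SD, n = 10 and 8), a difference of 0.88 ± 0.95 (SE, adjusted p = 0.556). Of the members 3 of 7 were called higher in responders, where 9.2% of all genes were. These were Pparg (1.01 ± 0.30, adjusted p = 0.0153), Lipe (0.90 ± 0.34, adjusted p = 0.0499) and Lep (0.62 ± 0.22, adjusted p = 0.0407). Without responder replicate 3 none of the 3 passed, with Pparg at 0.83 (adjusted p = 0.0637), Lipe at 0.59 (adjusted p = 0.212) and Lep at 0.34 (adjusted p = 0.208). The call of Lep was also lost without responder replicate 1 or 2 or IgG replicate 1, 2, 6, 7 or 8. That of Lipe was lost without any of these or without responder replicate 4 or 9 or IgG replicate 5. Without the tumours low in melanocyte transcripts Pparg stood at 0.75 ± 0.25 (adjusted p = 0.0559), and none of the 3 passed.

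Non-responders of study 3 lay below IgG tumours in the means of all 7 members, without passing. Adipoq averaged 6.62 ± 1.75 in non-responders and 9.01 ± 2.04 in IgG tumours (SD, n = 9 and 8), and the difference was -2.39 ± 0.98 (SE, adjusted p = 0.212). Of the members 0 of 7 passed by limma, where 0.693% of all genes passed in either direction, and 0 members and 0% of all genes passed the exact rank-sum test. At an unadjusted limma p under 0.05 Adipoq, Cidec and Retn were lower, where 2.64% of all genes were. As above, the animal numbers of IgG and treated mice do not mix.

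In study 2 the same comparisons with IgG gave 0 calls among the members. For responders the differences ran from -0.27 (Fabp4) to 0.54 (Pparg, adjusted p = 0.0615), where 27.3% of all genes were called in either direction. Pparg alone had an unadjusted limma p under 0.05 there, against 16.7% of all genes that did so upward. By the exact rank-sum test Lipe and Pparg passed in that comparison (adjusted p = 0.0446 and 0.0353), as did 34.6% of all genes in either direction. Without the tumours of high B cell means, none of which is in these 2 groups, Pparg passed at 0.54 ± 0.20 (adjusted p = 0.0304), where 13% of all genes were called higher. Without those low in melanocyte transcripts it passed at 0.46 ± 0.18 (adjusted p = 0.0467), where 13.6% were. For non-responders the differences from IgG ran from -0.08 to 0.80, with 0 members and 0% of all genes called by limma and 0 members at an unadjusted p under 0.05. No member passed in IgG against PBS tumours of either study, where 0.484% of all genes passed in study 3 and 0.0055% in study 2. In study 3 that difference was 2.24 ± 1.23 for Adipoq (adjusted p = 0.495), and Lipe alone had an unadjusted p under 0.05, where 3.66% of all genes did so upward. In study 2 no member did.

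Of the small outcome groups only study 3 relapse held any of the 10 tumours with the highest Adipoq, 2 of them. In study 3 relapse tumours replicate 2 was below replicates 1 and 3 for every member, with Cidec at 8.33, 4.65 and 8.96, Retn at 10.04, 7.52 and 11.32, and Pparg at 7.41, 5.96 and 7.58. In study 2 relapse tumours Cidec was low throughout, at 3.99, 4.22 and 5.13. Averaged over studies, relapse against responder tumours gave 0 of 7 members and 0% of all genes by limma, with 0 members at an unadjusted p under 0.05. Relapse against non-responder tumours gave 2 of 7, Lipe (0.90 ± 0.33, adjusted p = 0.0389) and Pparg (0.89 ± 0.29, adjusted p = 0.0273), where 9.96% of all genes were called higher. Adipoq differed by 2.06 ± 0.92 in that comparison and did not pass (adjusted p = 0.0812). The count was 0 without study 2 relapse replicate 1 or 3 or study 3 relapse replicate 1 or 3, and 1 without study 2 relapse replicate 2 or study 3 non-responder replicate 8. It was 5 without study 3 relapse replicate 2 or study 2 non-responder replicate 14. Without the tumours of high B cell means it was 6, where 15.3% of all genes were called higher, and without those low in melanocyte transcripts 6, where 17.9% were.

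The 3 stabilization tumours had Pparg values of 7.10, 7.55 and 5.48 and Cidec values of 4.39, 5.77 and 4.11. In replicates 1 and 2, both low in melanocyte transcripts, Pparg lay above the study 3 responder median and Cidec below it. Against non-responders 1 of 7 members was called higher, Pparg (1.11 ± 0.42, adjusted p = 0.0357), where 13.3% of all genes were. Without the tumours low in melanocyte transcripts only stabilization replicate 3 remained, taken to vary like the other groups, and the Pparg difference was -0.12 ± 0.52 (adjusted p = 0.9999). Leaving out replicate 1 or replicate 2 alone also ended the call. Against responders 0 of 7 passed by limma, where 0.11% of all genes passed in either direction, and Cidec, Retn and Lep were lower at an unadjusted p under 0.05, where 3.84% of all genes were. Fabp4 was 8.79 and 9.42 in the 2 growth delay tumours, against 9.40 to 11.76 (median 10.68) in IgG tumours of study 2, a difference of -1.42 ± 0.72 (adjusted p = 0.913). No member and 0% of all genes passed there, and no member had an unadjusted p under 0.05.

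The 21 pairs of members had Spearman correlations between 0.58 and 0.96 (median 0.80) over study 3, and between -0.04 and 0.90 (median 0.38) over study 2. Of the 10 tumours with the highest Adipoq, 5 were study 3 responders, 2 study 3 relapse tumours, and 1 each a study 2 responder, a study 2 non-responder and a study 3 IgG tumour. Of the 10 highest for Cidec, 9 were among them, with 8 for Retn and Lep, 7 for Lipe and Fabp4 and 6 for Pparg. Adipoq and Cidec had a Spearman correlation of 0.95 over the 37 tumours of study 3 and 0.90 over the 53 of study 2 (Pearson 0.92 and 0.88). Without the 2 tumours farthest from the Adipoq median the Pearson values were 0.92 and 0.87. Adipoq and Retn had Spearman correlations of 0.96 and 0.84. Tumours of a group share treatment and array processing, and these correlations describe the set without a test.

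Fabp4, Pparg, Lipe and Lep had lower correlations with Adipoq than Cidec and Retn did in both studies. Fabp4 and Adipoq had a Spearman correlation of 0.84 in study 3 and 0.66 in study 2. With the macrophage list mean Fabp4 had 0.72 and 0.42, and with the endothelial list 0.62 in both studies. Pparg and Adipoq had a Spearman correlation of 0.72 in study 3 and 0.40 in study 2, against 0.81 and 0.82 between Pparg and the macrophage list mean. Pparg had 0.86 and 0.72 with the T cell list and 0.76 and 0.66 with the fibroblast list. Adipoq and the macrophage list had 0.49 and 0.52. Lipe correlated with Pparg at 0.82 and 0.68, with Adipoq at 0.79 and 0.39, and with the endothelial list at 0.63 and 0.77. With the fibroblast list Lipe had 0.78 and 0.53, with the macrophage list 0.77 and 0.59, and with the T cell list 0.71 and 0.49. Lep and Adipoq had 0.87 in study 3 and 0.37 in study 2, and in study 2 Lep had 0.08 with Lipe and -0.04 with Pparg. In study 2 some tumours had high Pparg beside low Adipoq. Responder replicate 7 had a Pparg value of 6.80 with Adipoq at 5.20, and relapse replicate 1 had a Pparg value of 6.60 with Adipoq at 4.55.

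**Figure D4:**
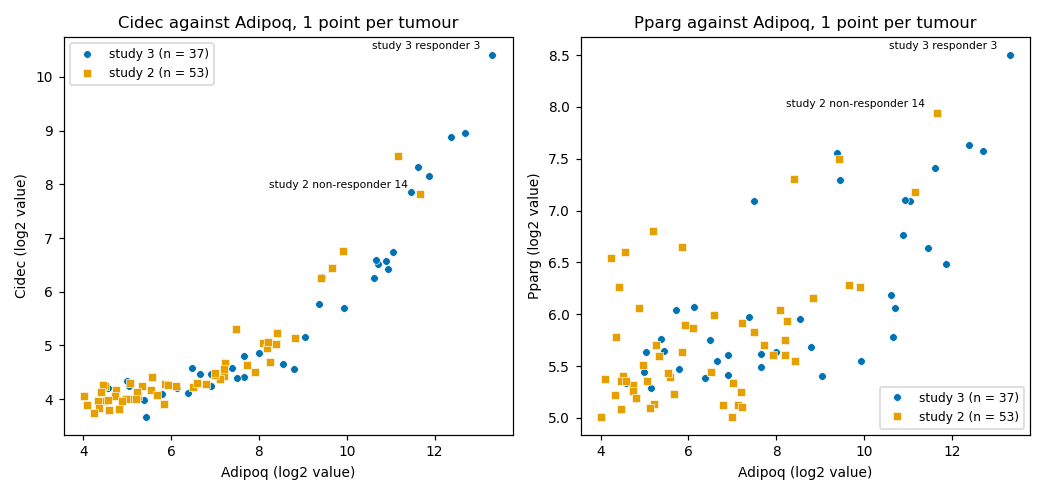
Cidec (left) and Pparg (right) on the vertical axes against Adipoq on the horizontal axes, all as log2 array values with 1 point per tumour and the studies in separate colours. Cidec follows Adipoq along 1 curve in both studies, and Pparg reaches 6.80 in a study 2 tumour whose Adipoq is 5.20. The named points are the tumours with B cell list means of 9.82 and 9.45.

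The tumours at the top of this order differed in their B cell means. Study 3 responder replicate 3 had a mammary and simple epithelium mean of 8.09 and a T cell mean of 10.05 beside its B cell mean of 9.82. Study 2 non-responder replicate 14 had 6.71 and 10.04 for these lists. Responder replicates 1 and 2 of study 3, with Adipoq at 12.39 and 11.87, had B cell means of 5.34 and 5.63 and epithelium means of 6.61 and 6.35. In study 3 IgG replicate 4, with Adipoq at 11.46, these means were 5.28 and 6.01. Over study 3 the epithelium list mean and Adipoq had a Spearman correlation of 0.61, and over study 2 of 0.54. Study 3 relapse replicate 3, with Adipoq at 12.70, had a B cell mean of 6.94 and an epithelium mean of 6.89, and study 2 responder replicate 3, with Adipoq at 11.16, had 6.01 and 6.75. Among the 10 tumours highest in Adipoq the B cell mean thus ran from 5.28 to 9.82, against group medians between 5.15 and 5.72. In those named here the epithelium mean ran from 6.01 to 8.09. That range leaves out study 3 relapse replicate 1 and responder replicates 8 and 9, which are also among the 10. It therefore does not show that the epithelium mean was raised in all 10. Group medians of that list ran from 5.09 to 5.42, apart from 6.52 in study 3 relapse tumours.

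Other genes of fat tissue, from lists written with earlier results of these data known, were called in part, read against the 14.4% of all genes that were higher. In study 3 responders against non-responders, 5 of 10 genes of the lipid droplet and lipolysis rose, with a median difference of 0.39 over the list. Aoc3, an amine oxidase abundant on fat cells, rose by 1.96 ± 0.53 and Plin4, a droplet coat protein, by 1.80 ± 0.48. Pde3b, the phosphodiesterase through which insulin restrains lipolysis, rose by 1.63 ± 0.36, and Pnpla2, the lipase that starts triglyceride breakdown, by 0.89 ± 0.21. Among 15 genes of lipid uptake and synthesis 7 rose, with a median of 0.57. Lpl, which frees fatty acids from lipoproteins, rose by 1.45 ± 0.35, the fatty acid transporter Cd36 by 1.49 ± 0.49 and the lipogenic gene Thrsp by 1.39 ± 0.38. Car3, a carbonic anhydrase of fat and muscle, had the largest value, 2.75 ± 1.26, and did not pass (adjusted p = 0.0745).

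Of 7 other secreted factors 5 rose, with a median of 0.89. Rbp4, the retinol carrier, rose by 1.76 ± 0.52, Retnla, a resistin-like protein also made by macrophages, by 1.44 ± 0.44, Apoe, a lipid carrier abundant in macrophages, by 1.38 ± 0.31, and Nnat by 0.89 ± 0.33. Of 11 factors that direct or mark fat cell formation 6 rose, with a median of 0.55. Cebpa, the partner of PPAR gamma, rose by 1.49 ± 0.34, Ebf1 by 1.33 ± 0.45 and Ebf2 by 1.07 ± 0.29, while Zfp423 stood at 0.77 ± 0.32 and did not pass (adjusted p = 0.0503). In the brown and beige fat list 0 of 8 rose and 1 fell, where 22.4% of all genes were called lower. The one that fell was Elovl3, a fatty acid elongase of brown fat, by 0.19 ± 0.08, and it is named after its value was seen. Cox8b (1.19 ± 0.49), Cox7a1 (0.47 ± 0.37), Ppargc1a (-0.62 ± 0.33) and Prdm16 (-0.58 ± 0.27) did not pass.

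In study 2, 0 of these 51 genes passed by limma between responders and non-responders, and 5 had an unadjusted p under 0.05, as did 26.6% of all genes. The list medians lay between -0.08 and 0.20. The largest differences there among the genes named were those of Car3 (-0.69 ± 0.99), Aoc3 (0.61 ± 0.41) and Lpl (0.61 ± 0.27).

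**Figure D5:**
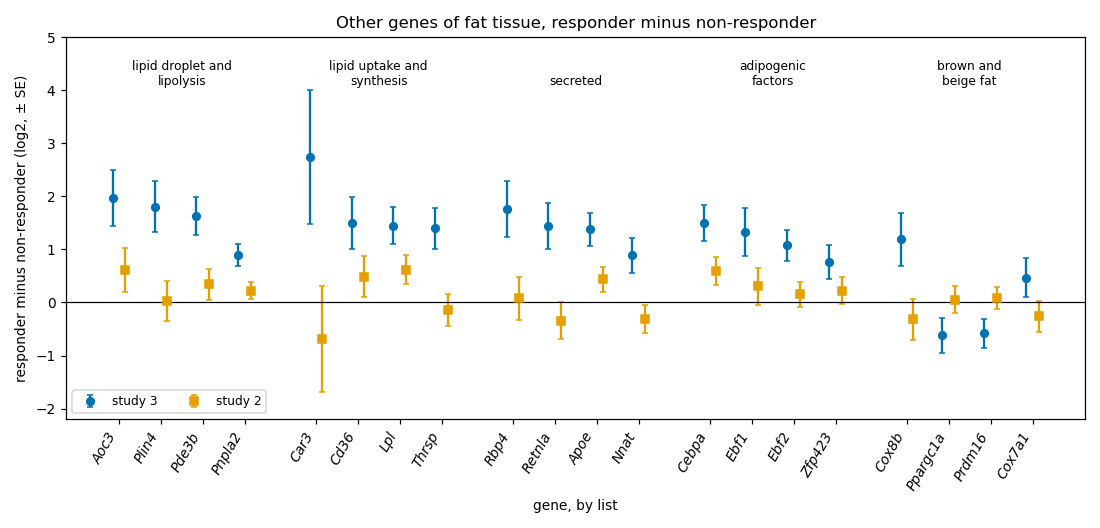
Responder minus non-responder differences on the log2 scale, with standard errors, in study 3 (circles) and study 2 (squares). Shown are 20 other genes of fat tissue (horizontal axis), in each of 5 lists the 4 with the largest absolute study 3 difference. In study 3 the genes shown of the first 4 lists lie above 0, up to 2.75 for Car3. In study 2 the differences of the genes shown lie between -0.69 and 0.61.

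Genes outside the members were ranked by how closely they followed the members' mean, taken over standardized values. Over all 90 tumours the closest were Hp (haptoglobin, an acute phase protein that fat also makes), Cdo1 (a cysteine dioxygenase), Ghr (the growth hormone receptor), Ephx2 (an epoxide hydrolase) and Plin4. Their Spearman correlations with that mean were 0.92, 0.89, 0.86, 0.85 and 0.85. Ccdc80, Car3, Lrg1, Wfdc21 and Sncg followed, between 0.81 and 0.82. Within study 3 the closest 5 were Ephx2 (0.94), Cdo1 (0.93), Cyp2e1, Adh1 and Orm1 (0.92 each). Within study 2 they were Hp (0.88), Cdo1 (0.85), Aplnr (0.80), Svep1 (0.79) and Crip2 (0.78). Cdo1 alone was among the closest 5 in both studies.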

How the data were processed

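RNA of 90 tumours was read on 1 mouse array each. The authors deposited log2 values made with RMA, per the submitters' processing notes, which also name limma. It is not stated there if RMA was run on both studies at once. Of 45101 probe sets, 34958 name 1 gene symbol, 932 several and 9211 none. Each of 18194 genes was read from its single-symbol probe set with the highest mean over all arrays. limma 3.58.1 in R 4.3.3 fitted 1 mean for each of 12 study-by-outcome groups over all 90 arrays, without a filter on dim genes, and tests were 2-sided. Adjustment over all genes followed Benjamini and Hochberg, and calls were made at 0.05. An exact rank-sum test was run within each study. Unadjusted p-values are those of limma unless the rank-sum test is named.

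The members and gene lists were chosen with earlier results of these data known. Named beside the members were the 4 genes with the largest absolute study 3 difference in each fat list, and the genes closest to the members' mean. Alternatives were centring, quantile normalization, brighter genes only, a robust prior, array weights (gene-by-gene method, since REML did not converge), RNA quality as a covariate, other probe sets, fewer groups, a stricter threshold and leaving out tumours. The fits were tested on simulated data. P-values measure the spread between tumours of separate animals, and their number limits the precision.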

Additional observations from a re-analysis of the deposited data

Results flagged for a closer look

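In study 3 non-responders, replicate 3 stood apart from the other 8 tumours for 3 members, with a gap to the next tumour that was large against the range of the group. Its values were 5.70 for Cidec, 8.82 for Retn and 4.78 for Lep, each the highest of the group. Its Adipoq value, 9.94, was also the highest of the 9 non-responders. Its B cell list mean was 5.56, its mammary and simple epithelium mean 5.33 and its skeletal muscle mean 9.32. Such gaps were tested only in groups of 4 to 10 tumours, which were the study 3 responder, non-responder, IgG and PBS groups. Chance marks about 1 in 20 such sets, and 3 of the 28 sets of 1 gene in 1 group were marked, all of them in this tumour. The 3 genes rise and fall together over study 3 (Spearman correlations of 0.84 to 0.91), so these are not 3 separate marks.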

How the results depend on the processing

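Counts are of the 7 members called. Percentages in brackets are the shares of all genes called in either direction in the same setting. The setting of brighter genes only keeps Adipoq, Retn and Fabp4 and leaves Lipe, Cidec, Lep and Pparg untested. Of the 3 kept, study 3 responder against non-responder gave 3 (41%) and the mean of both studies 2 (52.7%). The rank-sum test gave 3 for the study 3 comparison (22.1%), and fitting the compared groups only gave 5 (17.3%). For study 3 responder against IgG (3 calls), 1 was left after centring arrays on their median (24%) and with array weights (10.5%). The count was also 1 with the 3 prime minus 5 prime covariate (15.4%). Without the tumours of high B cell means, a setting chosen after seeing the data, it was 1 as well (11.3%). It was 0 with the compared groups only (6.06%), at a threshold of 0.01 (5.22%) and by the rank-sum test (10.9%). Without the tumours low in melanocyte transcripts it was 0 too (6.02%). The count of 0 with brighter genes only was fixed beforehand, since Lipe, Lep and Pparg, the genes called, were not tested there. Relapse against non-responder (2) gave 1 after quantile normalization (10.4%) and 0 at the stricter threshold (2.49%). It gave 6 with array weights, without high B cell means (35.4%) or without low melanocyte means (41.2%). Its 0 with brighter genes was fixed beforehand, since Lipe and Pparg were not tested there. At 0.01 the mean of both studies gave 2 (29.5%). Stabilization against non-responder (1) gave 5 with array weights, and 0 at 0.01 (12.8%) and by rank-sum (0%). With brighter genes Pparg, the gene called, was not tested. Study 2 responder against non-responder (0) gave 1 with array weights, without low melanocyte means (17.8%) and without high B cell means (18.2%). Study 2 responder against IgG (0) gave 2 with array weights, compared groups only (37.1%) or rank-sum (34.6%). It gave 1 without low melanocyte (31.9%) or high B cell means (31.5%). With array weights study 3 non-responder against IgG and IgG against PBS (0 each) gave 3. Array weights raised calls over all genes as well. They called 57.8% of all genes in either direction for relapse and 54.7% for stabilization against non-responder, and 60.3% and 44.2% in study 2 for responder against IgG and against non-responder. They called 15.8% for study 3 IgG against PBS and 2.15% for non-responder against IgG. The cause of these changes was not tested. Leaving out 1 tumour gave 6 to 7 for study 3 responder against non-responder, 0 to 1 in study 2, 4 to 6 for their mean, 0 to 3 and 0 to 1 for responder against IgG in studies 3 and 2, 0 to 5 for relapse and 0 to 1 for stabilization against non-responder. Of called differences, Pparg in stabilization against non-responder tumours reversed, at -0.12 without low melanocyte means. Lipe in study 3 stood at -0.063 by its second probe set. That probe set had a mean of only 4.15 over all arrays and did not follow the main one (Pearson -0.40). Of 87 differences not called, 9 turned sign without low melanocyte means and 5 without high B cell means. The first include the other 6 members in stabilization against non-responder tumours, Adipoq at -0.83. The second include Cidec and Retn in study 2 responder against non-responder tumours. There Fabp4 stood at 0.33 and 0.15 by 2 other probe sets. No paired analysis was possible because the labels give each tumour its own animal number and no replicate number shared between groups.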

Other observations

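Adipoq also varied among control tumours. In IgG tumours Adipoq ran from 6.39 to 11.46 (median 9.13) in study 3 and from 4.02 to 8.40 (median 5.59) in study 2. The studies were not compared by a test in this group, and how their arrays were normalized to each other is not known. Study 3 responder replicate 4 had the highest skeletal muscle mean of its group, 13.12 with Adipoq at 9.45, below the group median of 10.92. The study 3 PBS tumour whose 3 prime minus 5 prime difference was 5.20 had Adipoq at 8.0, within the range of 5.00 to 9.05 in its group.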
